A study of Mus musculus with 10 samples.

Results

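The genes described here are 9 members of the insulin-like growth factor (IGF) axis, namely the ligand gene Igf1, the receptor genes Igf1r and Insr, the docking protein genes Irs1 and Irs2, and the binding protein genes Igfbp2, Igfbp3, Igfbp4 and Igfbp5. They were taken by symbol from a table of 47729 mouse genes, in which each of the 9 was found. All 9 were among the 20562 genes with enough counts to be tested. Total RNA of mouse forelimb buds was sequenced in 10 libraries. In the 5 knockout embryos, Prx1Cre, a Cre recombinase driven by a Prrx1 enhancer in limb bud mesenchyme, was combined with floxed Cxxc1 on both alleles. The 5 control embryos were of mixed genotype. In controls 2 and 4, a single Cxxc1 allele was floxed and Cre was absent. In control 3 both alleles were floxed and Cre was absent. Control 1 had Prx1Cre together with a single floxed allele, and control 5 had both alleles floxed and a Prx1Cre label with a question mark. Every embryo of both groups therefore carried a floxed allele. Embryos were at embryonic day 11.5 to 12, with a somite stage of 50.0 ± 1.00 in knockouts and 50.2 ± 0.84 in controls (SD, n = 5 each), and came from litters A to D. Litter A holds 2 knockouts and 2 controls, and the other litters hold 1 knockout and 1 control.

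IGF1 and IGF2 are secreted growth factors that bind the IGF1 receptor, a tyrosine kinase closely related to the insulin receptor. The activated receptors phosphorylate the docking proteins IRS1 and IRS2, which recruit phosphatidylinositol 3-kinase and so activate AKT, a kinase that promotes growth and survival. Outside the cell the ligands are held by IGF binding proteins, which can keep them from the receptor or deliver them near it, and which proteases such as PAPPA can cleave. IGF signals are known to promote the growth of the mouse embryo and of its limbs. CXXC1 is a protein that recognises CpG without methylation and works with the SET1 histone methyltransferases, whose product is methylated lysine 4 of histone H3.

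Depth was 33274911 to 49880815 counts per library. The targeted gene Cxxc1 had 75.1, 75.8, 76.2, 75.8 and 73.1 CPM (counts scaled to a common library total) in knockouts, against 91.4, 95.4, 105.8, 101.6 and 89.5 CPM in controls, with no overlap (log2 fold change -0.36, SE 0.05, adjusted p = 0.000144). This count covers the whole gene, not the deleted part, and Prx1Cre does not act in the ectoderm, vessels or blood of the bud. CPM refer to the TMM-scaled library. All adjusted p-values are Benjamini-Hochberg values over the 20562 genes, from the quasi-likelihood test of edgeR, and a gene is called below 0.05. The limb bud mesenchyme markers were detected in every library, with summed levels of 1058 to 1196 CPM in knockouts and 1938 to 2094 CPM in controls. Of these 8 genes 5 fell, while Msx1 (0.27), Twist1 (-0.16) and Lhx2 (-0.27) did not pass. By mean CPM over all 10 libraries the highest were Prrx1 (297 ± 15.9 CPM in knockouts and 578 ± 25.6 CPM in controls) and Pdgfra (135 ± 5.27 CPM in knockouts and 493 ± 45.4 CPM in controls, SD, n = 5 each). Knockouts had higher levels of the markers of several other cell types. All 10 macrophage genes rose, with a summed level of 204 to 240.5 CPM in knockouts and 53.5 to 67.1 CPM in controls. All 8 erythroid genes rose (3200 to 6979 CPM in knockouts, 2631 to 3094 CPM in controls), as did 7 of 8 endothelial genes (302 to 353 CPM in knockouts, 242 to 285 CPM in controls) and 6 of 10 genes of ectoderm and apical ridge (538 to 642 CPM in knockouts, 300.3 to 496 CPM in controls). Of 8 cartilage genes 6 fell (201 to 236 CPM in knockouts, 574 to 1016 CPM in controls). Of 6 genes of Schwann precursors and neural crest 2 fell and 4 did not pass (60.9 to 72.6 CPM in knockouts, 73.8 to 97.4 CPM in controls). No marker was at 0 in all libraries. In bulk tissue, fewer cells of a type and less RNA per cell cannot be told apart, and the part of these cells in the results below was not tested.

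In the knockout buds, Irs1 and Igfbp5 rose, Igfbp4 fell, and the other 6 members did not pass the test. The changes were modest, with mean levels in knockouts of 1.48 times the control level for Irs1, 1.30 times for Igfbp5 and 0.65 times for Igfbp4. In each of these 3 genes the knockout and control libraries did not overlap. Of all genes tested, 35.2% were called (18.1% higher and 17.1% lower), so 3 of 9 is near the background and is not a result about the axis as a group. With the litter as a block, 5 of the 9 were called, with Igf1r and Irs2 added, against 35.6% of all genes tested. With the replicate number as a block, the same 5 were called, against 33.3% of all genes tested. The groups did not overlap in 25.3% of all genes tested (13.0% higher and 12.4% lower). None of the 9 was called with a change of 2-fold or more, against 4.80% of all genes tested for higher and 2.24% for lower. The median log2 fold change was 0.01 over the members and -0.001 over all genes tested, and the median size of the change, without its sign, was 0.20 over the members and 0.23 over all genes tested.

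**Figure D1:**
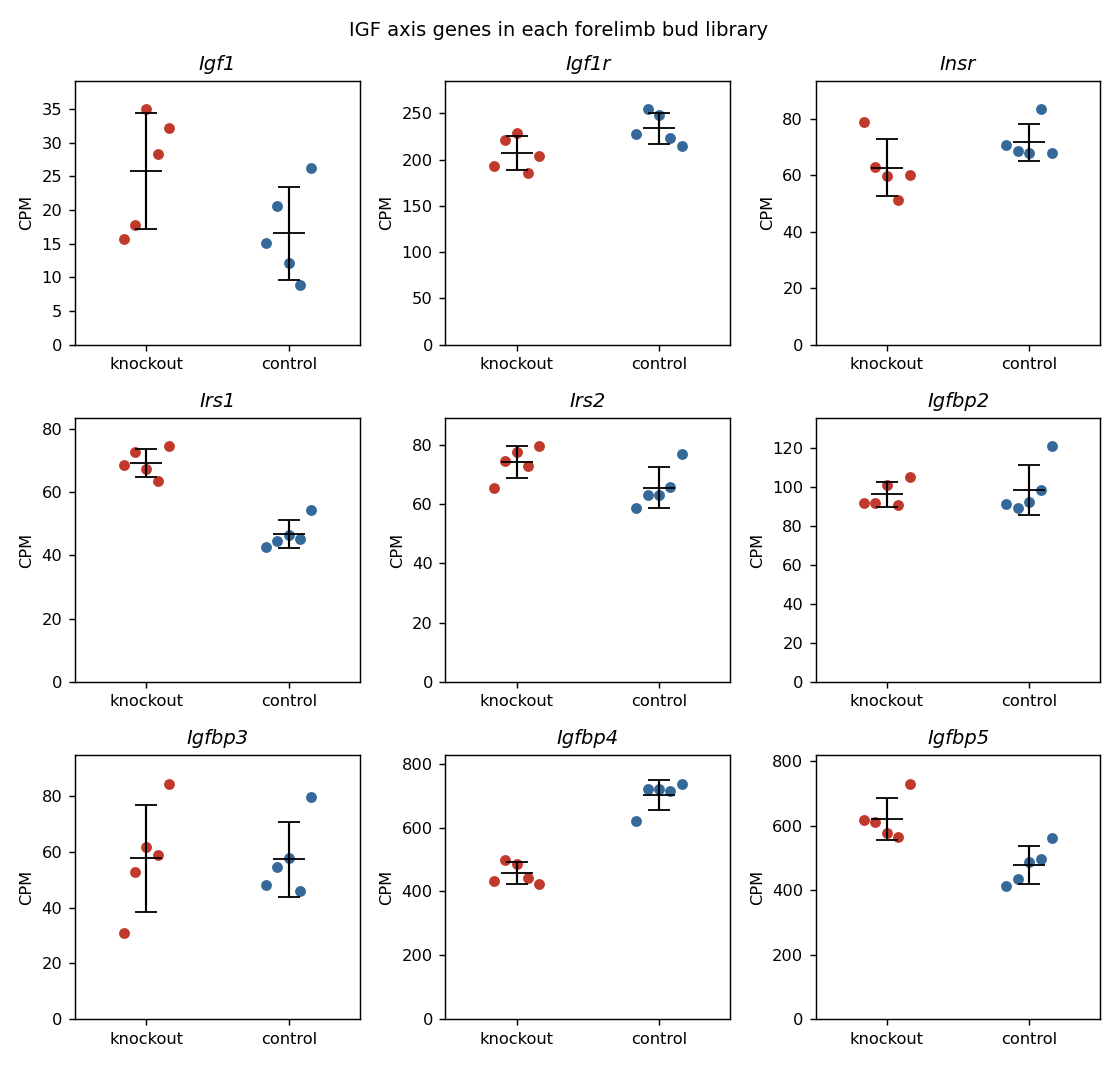
Level of each of the 9 genes, in CPM of the TMM-scaled library, in the 5 knockout libraries (red) and 5 control libraries (blue), with replicates 1 to 5 from left to right within a group; bars are mean ± SD. The groups lie apart for Irs1, Igfbp4 and Igfbp5 and overlap for the other 6 genes.

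Igf1, the ligand gene (ENSMUSG00000020053, chromosome 10, 87858265 to 87937042, plus strand, GRCm38), was the least abundant member per length of transcript in both groups. Its level was 15.6, 17.7, 35.0, 28.4 and 32.1 CPM in knockouts 1 to 5, against 15.1, 20.6, 12.2, 8.83 and 26.2 CPM in controls 1 to 5. The groups overlapped, since knockouts 1 and 2 lay within the control range while knockouts 3, 4 and 5 lay above every control. The means were 25.8 ± 8.65 CPM in knockouts and 16.6 ± 6.91 CPM in controls (SD, n = 5 each). The log2 fold change of 0.64 (95% interval -0.003 to 1.27) did not pass (adjusted p = 0.116). A two-sided exact permutation test of log2 CPM gave p = 0.103. Within litters, the knockout minus control difference was -0.08 in litter A, 1.52 in B, 1.68 in C and 0.29 in D on the log2 scale, and the differences between litters were not tested. Without control 5, the highest control, the gene passed (0.86, adjusted p = 0.0373). In the other 9 of the 10 fits that left out 1 library, Igf1 did not pass (adjusted p of up to 0.242). Without litter A the change was larger but did not pass (1.02, adjusted p = 0.0745).

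Igf2, the other IGF ligand gene and an imprinted gene, had the higher level per length and fell. It had 1696, 1774, 2036, 1798 and 1903 CPM in knockouts, against 3174, 3495, 3523, 3059 and 3755 CPM in controls. The decrease was -0.89 on the log2 scale (SE 0.07, adjusted p = 1.43e-06), with no overlap of the groups. Per kilobase of exon, Igf2 was at 322 ± 23.0 CPM in knockouts and 594 ± 49.2 CPM in controls, while Igf1 was at 2.60 ± 0.87 CPM in knockouts and 1.67 ± 0.70 CPM in controls (SD, n = 5 each). A gene on the same strand that is annotated in GENCODE M21 shares 62.8% of the exon bases of Igf2, so the count of Igf2 is less certain. The receptor Igf2r, which takes IGF2 up for degradation and is also imprinted, was at 315 ± 74.2 CPM in knockouts and 262 ± 36.7 CPM in controls (SD, n = 5 each) and did not pass (0.27, adjusted p = 0.193).

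Both receptor genes were a little lower on average in knockouts, and neither passed the test with all 10 libraries. Igf1r (ENSMUSG00000005533, chromosome 7, 67952827 to 68233668, plus strand) had 193, 221, 229, 186 and 204 CPM in knockouts 1 to 5, against 228, 254, 249, 223 and 214 CPM in controls 1 to 5. The ranges overlapped, as knockouts 2 and 3 lay within the control range and knockouts 1, 4 and 5 below it. The log2 fold change was -0.18 (95% interval -0.32 to -0.03, adjusted p = 0.0605, exact permutation p = 0.0556). The difference was below 0 in all 4 litters, between -0.26 and -0.07, and with the litter as a block the gene passed (-0.18, adjusted p = 0.0315). It also passed without knockout 3 (-0.22, adjusted p = 0.0299) or without control 5 (-0.21, adjusted p = 0.0353). In the other 8 of the 10 fits that left out 1 library, Igf1r did not pass (adjusted p of up to 0.142).

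Insr, the insulin receptor gene (ENSMUSG00000005534, chromosome 8, 3122061 to 3279617, minus strand), had 78.9, 62.9, 59.6, 51.3 and 60.0 CPM in knockouts 1 to 5, against 70.5, 68.5, 67.8, 83.3 and 67.9 CPM in controls 1 to 5. Knockout 1 was higher than every control but control 4, and the other 4 knockouts were lower than every control. The log2 fold change was -0.20 (95% interval -0.41 to 0.02, adjusted p = 0.159, exact permutation p = 0.135). The gene passed without knockout 1 (-0.29, adjusted p = 0.0149). In the other 9 of the 10 fits that left out 1 library, it did not pass. The change was smaller without control 4 (-0.14, adjusted p = 0.331) or without knockout 4 (-0.13, adjusted p = 0.332). Without litter A, from which knockout 1 came, the gene passed as well (-0.36, adjusted p = 0.0421).

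The balance of the receptor transcripts overlapped between the groups. The log2 ratio of Igf1r to Insr counts within a library was 1.73 ± 0.26 in knockouts and 1.71 ± 0.19 in controls (SD, n = 5 each). The difference of 0.03 did not pass the exact two-sided permutation test (p = 0.833, and 0.833 adjusted over the 2 ratios tested). In the lowest knockout library, knockout 1, the ratio was 1.29.

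The counts of the docking protein genes moved by different amounts. Irs1 (ENSMUSG00000055980, chromosome 1, 82233101 to 82291416, minus strand) had 68.6, 72.7, 67.2, 63.5 and 74.5 CPM in knockouts, against 42.7, 44.6, 46.6, 45.3 and 54.3 CPM in controls. The lowest knockout lay above the highest control, which was control 5. The means were 69.3 ± 4.39 CPM in knockouts and 46.7 ± 4.45 CPM in controls (SD, n = 5 each), and the log2 fold change was 0.57 (95% interval 0.42 to 0.72, adjusted p = 5.75e-05). The exact permutation p was 0.00794, the smallest that 5 against 5 can give, and the difference was between 0.46 and 0.69 within the 4 litters. Of the exon bases of Irs1, 30.9% are also exon of Gm9747, which is annotated antisense to it. Gm9747 rose too, to 33.9 ± 3.06 CPM in knockouts, against 19.0 ± 1.98 CPM in controls (SD, n = 5 each, log2 fold change 0.83, SE 0.08, adjusted p = 1.59e-05). The sources used here do not say whether reads were assigned by strand, so the counts of Irs1 and Gm9747 may not be separate.

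Irs2 (ENSMUSG00000038894, chromosome 8, 10984681 to 11008458, minus strand) had 65.6, 74.6, 77.8, 73.0 and 79.5 CPM in knockouts, against 58.6, 63.2, 63.1, 65.8 and 77.1 CPM in controls. The groups overlapped, as knockouts 1, 2 and 4 lay within the control range and knockouts 3 and 5 above every control. Without control 5 only knockout 1 would lie within the control range. The log2 fold change was 0.18 (95% interval 0.01 to 0.34, adjusted p = 0.0859, exact permutation p = 0.0714). It was above 0 in all 4 litters (0.04 to 0.30) and passed with the litter as a block (0.18, adjusted p = 0.0324). It passed as well without knockout 1 (0.22, adjusted p = 0.0411) or without control 5 (0.24, adjusted p = 0.0113). In the other 8 of the 10 fits that left out 1 library, Irs2 did not pass (adjusted p of up to 0.188).

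The log2 ratio of Irs1 to Irs2 counts was 0.06, -0.04, -0.21, -0.20 and -0.09 in knockouts, against -0.46, -0.50, -0.44, -0.54 and -0.51 in controls. Every knockout lay above every control, with means of -0.10 ± 0.12 in knockouts and -0.49 ± 0.04 in controls (SD, n = 5 each). The difference of 0.39 had an exact two-sided permutation p of 0.00794, and 0.0159 adjusted over the 2 ratios. A ratio within a library does not depend on how libraries were scaled to each other. It would still hold any reads of Gm9747 counted as Irs1, and the part of such reads was not tested.

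**Figure D2:**
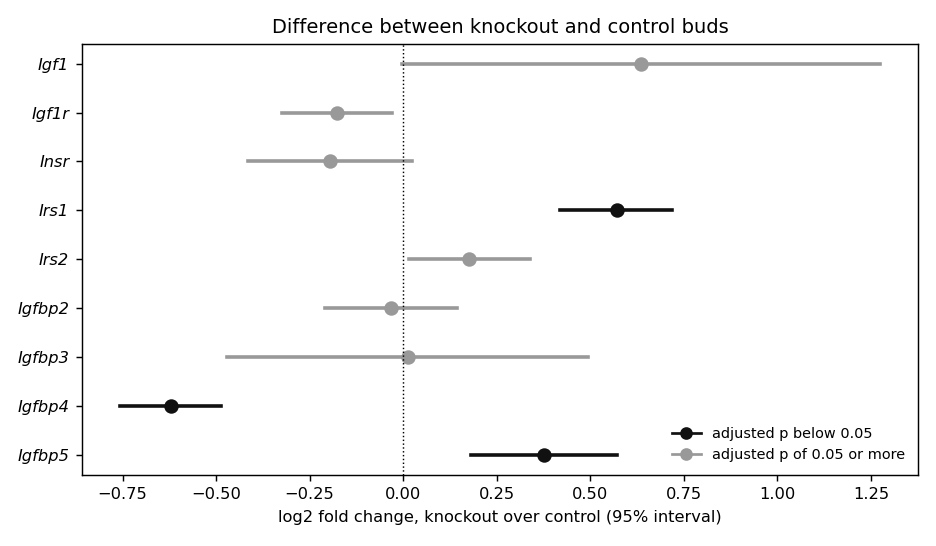
Log2 fold change of knockout over control for the 9 genes (points) with its 95% interval (lines), from edgeR's quasi-likelihood fit of 5 against 5 libraries; black marks an adjusted p below 0.05. Irs1 and Igfbp5 lie above 0 and Igfbp4 below it, and the interval of Igf1 is the widest, from -0.003 to 1.27.

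The binding protein genes were the most abundant members per length and held both directions of change. Igfbp4 (ENSMUSG00000017493, chromosome 11, 99041244 to 99054392, plus strand) encodes a binding protein that is best known for holding IGFs away from their receptor. It had 433, 499.8, 486, 443 and 424 CPM in knockouts, against 620.4, 720.2, 723, 716 and 738 CPM in controls. All 5 knockouts lay below all 5 controls, and control 1 was the lowest control. The means were 457 ± 33.5 CPM in knockouts and 704 ± 47.2 CPM in controls (SD, n = 5 each). Igfbp4 fell by 0.62 on the log2 scale (95% interval -0.76 to -0.49, adjusted p = 1.40e-05, exact permutation p = 0.00794), and by between 0.52 and 0.80 within the 4 litters.

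Igfbp5 (ENSMUSG00000026185, chromosome 1, 72857932 to 72874884, minus strand), whose protein binds extracellular matrix as well as IGFs, moved the other way. It had 618, 612, 578, 564 and 731 CPM in knockouts, against 412, 435, 487, 496 and 561 CPM in controls. The groups did not overlap, but knockout 4 at 563.8 CPM lay close to control 5 at 561.1 CPM. The means were 621 ± 65.8 CPM in knockouts and 478 ± 58.0 CPM in controls (SD, n = 5 each), and the log2 fold change was 0.38 (95% interval 0.18 to 0.57, adjusted p = 0.00610, exact permutation p = 0.00794). The difference was 0.54 in litter A and 0.25, 0.18 and 0.38 in litters B, C and D. Without litter A, 3 against 3, Igfbp5 did not pass (0.28, adjusted p = 0.110).

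Igfbp2 and Igfbp3 did not pass. Igfbp2 (ENSMUSG00000039323, chromosome 1, 72824503 to 72852474, plus strand) had 91.9, 91.9, 101.2, 91.1 and 105.4 CPM in knockouts, against 91.5, 89.4, 92.2, 98.4 and 121 CPM in controls. The whole knockout range lay within the control range. The log2 fold change was -0.03, with a 95% interval of -0.21 to 0.14 (adjusted p = 0.793, exact permutation p = 0.825). It lies near Igfbp5 on chromosome 1, on the other strand.

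Igfbp3 (ENSMUSG00000020427, chromosome 11, 7206086 to 7213923, minus strand), which in human cells is known as a gene that p53 can induce, had 30.9, 52.9, 61.7, 58.8 and 84.6 CPM in knockouts 1 to 5, against 48.2, 54.7, 58.0, 45.9 and 79.8 CPM in controls 1 to 5. Knockout 1 was the lowest library and knockout 5 the highest, with all controls between them. The log2 fold change was 0.01, with a 95% interval of -0.47 to 0.50 (adjusted p = 0.973, exact permutation p = 0.929), so changes of that size in either direction lie within the interval. In litter A the difference was -0.34, and in litters B, C and D it was 0.09, 0.36 and 0.08. The muscle precursor markers, of which 5 of 8 rose, also set knockout 1 apart from the other knockouts. Their summed level was 113 CPM in knockout 1 and 198 to 217 CPM in knockouts 2 to 5, against 103 to 128 CPM in controls, and their part in the level of Igfbp3 was not tested.

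**Figure D3:**
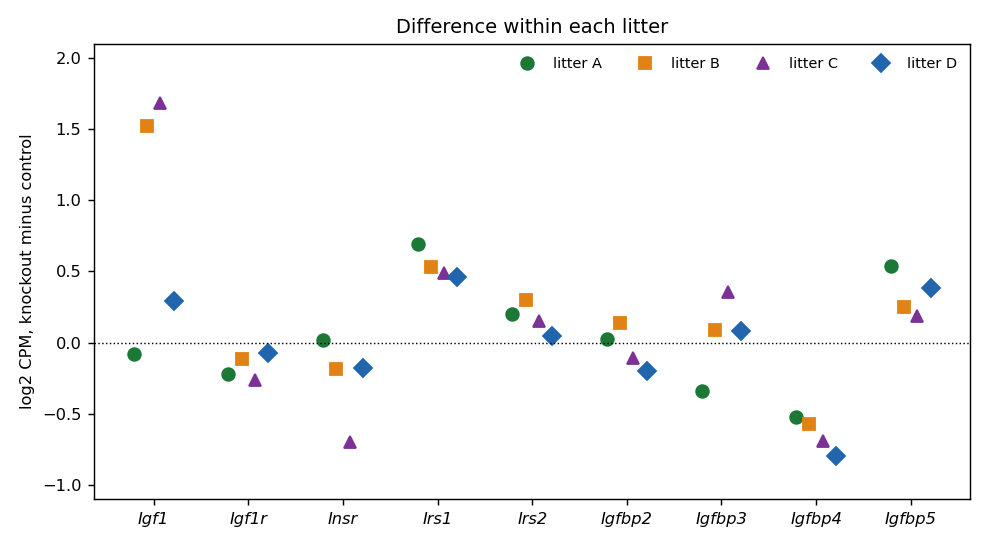
Difference in mean log2 CPM, knockout minus control, within each of the 4 litters for the 9 genes; litter A holds 2 embryos of each group and the other litters 1. Irs1, Irs2 and Igfbp5 are above 0 and Igf1r and Igfbp4 below 0 in all 4 litters, while Igf1 runs from -0.08 in litter A to 1.68 in litter C.

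Divided by exon length, the members kept nearly the same order in both groups. In knockouts the mean levels were 103.6 ± 7.6 CPM per kilobase for Igfbp4, 103.3 ± 11.0 for Igfbp5, 52.1 ± 3.56 for Igfbp2, 18.5 ± 6.15 for Igfbp3, 12.3 ± 1.09 for Igf1r, 11.7 ± 0.854 for Irs2, 7.58 ± 0.480 for Irs1, 4.55 ± 0.737 for Insr and 2.60 ± 0.873 for Igf1 (SD, n = 5). In controls they were 159 ± 10.7 CPM per kilobase for Igfbp4, 79.6 ± 9.66 for Igfbp5, 53.4 ± 7.05 for Igfbp2, 18.3 ± 4.31 for Igfbp3, 13.9 ± 1.02 for Igf1r, 10.4 ± 1.10 for Irs2, 5.21 ± 0.481 for Insr, 5.11 ± 0.487 for Irs1 and 1.67 ± 0.698 for Igf1 (SD, n = 5). Among neighbours in the knockout order, the ranges overlapped between Igfbp4 and Igfbp5, between Igfbp3 and Igf1r, and between Igf1r and Irs2. In the control order they overlapped between Igfbp3 and Igf1r and between Insr and Irs1. The length is that of all annotated exons together, not of the transcripts in use, so distances between genes on this scale are approximate.

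The make-up of the binding protein transcripts differed between the groups, whose ranges did not overlap for Igfbp4 and Igfbp5. Igfbp4 held 31.8% to 40.2% of the summed CPM per kilobase of Igfbp2 to Igfbp5 in knockouts and 47.5% to 54.1% in controls. Igfbp5 held 34.3% to 40.3% in knockouts and 24.0% to 26.6% in controls. Igfbp2 held 18.8% ± 0.693 in knockouts and 17.2% ± 1.2 in controls, and Igfbp3 held 6.58% ± 1.89 in knockouts and 5.85% ± 0.919 in controls (SD, n = 5 each). The summed level of the 4 genes, without division by length, was 1232 ± 75.0 CPM in knockouts and 1338 ± 118 CPM in controls (SD, n = 5 each), with overlapping ranges. These shares are given as a description, with no test.

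**Figure D4:**
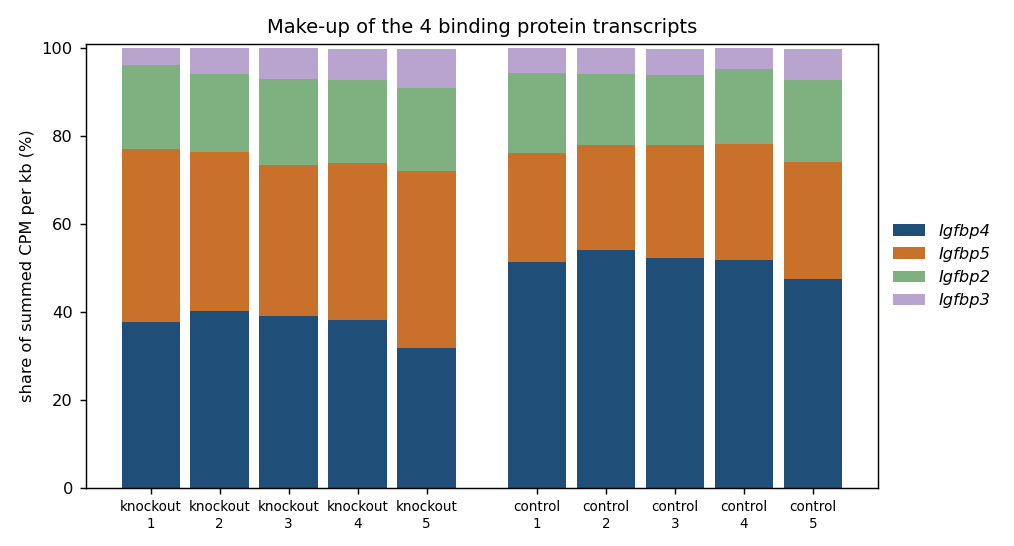
Share of Igfbp4, Igfbp5, Igfbp2 and Igfbp3 in their summed CPM per kilobase of exon, in percent, in each of the 5 knockout and 5 control libraries (bars add to 100% within rounding). Igfbp4 holds 47.5% or more in every control and 40.2% or less in every knockout.

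The promoters of the 3 called members are shown because CXXC1 binds CpG, with each CG in capitals. The stretches are from RefSeq (GRCm38.p6), run 5′ to 3′ on the strand of the gene and end before the first annotated exon base. They are Irs1 at chr1:82291440-82291689 (minus strand), Igfbp4 at chr11:99040994-99041243 (plus strand) and Igfbp5 at chr1:72874885-72875115 (minus strand).
Irs1: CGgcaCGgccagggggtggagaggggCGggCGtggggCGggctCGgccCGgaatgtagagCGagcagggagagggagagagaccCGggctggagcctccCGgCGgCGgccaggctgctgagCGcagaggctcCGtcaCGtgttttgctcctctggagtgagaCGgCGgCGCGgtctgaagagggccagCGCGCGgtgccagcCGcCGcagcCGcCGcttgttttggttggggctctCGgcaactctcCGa
Igfbp4: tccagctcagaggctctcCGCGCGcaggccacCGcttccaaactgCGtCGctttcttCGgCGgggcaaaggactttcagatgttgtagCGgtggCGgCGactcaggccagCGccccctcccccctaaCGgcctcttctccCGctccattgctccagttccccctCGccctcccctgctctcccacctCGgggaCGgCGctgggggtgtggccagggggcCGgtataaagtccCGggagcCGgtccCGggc
Igfbp5: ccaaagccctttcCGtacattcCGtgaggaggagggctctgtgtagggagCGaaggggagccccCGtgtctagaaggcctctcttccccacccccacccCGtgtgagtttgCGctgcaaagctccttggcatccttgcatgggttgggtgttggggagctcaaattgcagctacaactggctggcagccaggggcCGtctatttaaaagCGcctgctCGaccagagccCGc
The stretch of Irs1 holds 28 CG, that of Igfbp4 22 and that of Igfbp5 10. A match of letters is a description, not a binding site. RefSeq windows of 300 bases (250 before to 50 after a gene's start) were found for 8 of the 9 members. In these windows the CG count was 48 for Igf1r, 41 for Irs2, 37 for Igfbp3, 28 for Irs1, 27 for Igfbp4, 18 and 14 at the 2 starts of Igfbp2, 10 for Igfbp5 and 6 for Igf1. The median over 32851 such windows was 7, and 94.6% of windows held at least 1 CG. Of the called members, Igfbp5 had more CG than 56.5% of all windows, Igfbp4 more than 84.5% and Irs1 more than 85.8%. Of the members not called, Igf1r had more than 98.8%, Irs2 more than 96.5% and Igfbp3 more than 94.4%. The 2 starts of Igfbp2 had more than 70.3% and 63.7%, and Igf1 more than 43.6%. The motif TATAAA, sought on both strands, was found in the window of Igfbp4 among the members and in 13.6% of all windows. Neither binding of CXXC1 nor methylation was measured here.

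Over the 10 libraries, the other genes whose log2 CPM followed a member most closely are given as a description, from 15699 genes of at least 1 CPM. Irs1 was most like Kdelc2 (Pearson r = 0.993) and Ubxn8 (0.988), and Igfbp4 most like Mon1a (0.989) and Mpnd (0.986). Such likeness was common for these genes, since 794 genes reached an r of 0.9 with Irs1 and 594 with Igfbp4. Igfbp5 was most like Gm2830 (0.963) and Hexa (0.960), and Igf1 most like the imprinted gene Mest (0.958) and Hoxb5 (0.956). Igf1r was most like Btn2a2 (0.924) and Pi15 (0.921), Insr like Thsd4 (0.922) and Tspan2 (0.902), and Irs2 like Arhgef15 (0.933) and Tmem59l (0.926). Igfbp2 was most like Ube2ql1 (0.936) and Eno1 (0.894), and Igfbp3 most like Pax7 (0.911) and Rarb (0.893). Among the members themselves, with each group centred on its own mean, r was highest between Irs2 and Igfbp2 (0.88) and between Irs1 and Igfbp5 (0.88). It was lowest between Insr and Igfbp3 (-0.72) and between Igf1 and Insr (-0.69), over the same 10 libraries. Centring by group leaves differences between litters in these values. Knockout 5 and control 5, both of litter D, were each the highest of their group for Irs1, Irs2, Igfbp2, Igfbp3 and Igfbp5. This did not hold for Igf1, Igf1r, Insr and Igfbp4. The part of the litter in the correlations was not tested.

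Of 62 other genes of the pathway in 7 lists, 56 were tested, of which 14 rose, 13 fell and 29 did not pass. That is 48.2% called, against 35.2% of all genes tested, with a median log2 fold change of 0.04 in the lists and -0.001 over all genes. With a filter of at least 1 CPM in 5 libraries, 26 of 52 tested pathway genes were called, against 6751 of all 15709 genes tested. The lists were not tested as groups. Without litter A, 16 of 57 tested pathway genes were called, against 4023 of all 20566 genes tested in that fit. Of the other ligands, receptors and substrates, 4 of 7 were tested, and Igf2 was the 1 gene called. The insulin genes were not tested, with Ins2 at 0 counts in every library. In the shallowest library, 0 counts leave room for 0.0902 CPM or less (3 counts, counting error only).

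Of 5 other binding protein genes, 2 were tested and both rose. Igfbpl1, which encodes a protein related to the IGF binding proteins, had 7.40, 7.85, 5.85, 6.77 and 6.53 CPM in knockouts, against 2.54, 1.95, 2.49, 4.49 and 3.17 CPM in controls, with no overlap (1.23, SE 0.20, adjusted p = 0.000425). Igfbp7 was at 1.10 ± 0.301 CPM in knockouts and 0.514 ± 0.0836 CPM in controls (SD, n = 5 each, 1.09, SE 0.22, adjusted p = 0.00221), and is named after its values were seen. Igfbp1 was at or below the level that the filter on low counts removes, as were Igfbp6 and Igfals.

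Of 8 proteases that cleave binding proteins or their inhibitors, 2 rose, 2 fell and 4 did not pass. The metalloproteases Adam12 (9.16 ± 1.15 CPM in knockouts and 13.2 ± 0.624 CPM in controls, fell by 0.52) and Adam9 (32.95 ± 1.32 CPM in knockouts and 40.5 ± 2.94 CPM in controls, fell by 0.30) were lower on the log2 scale (SD, n = 5 each). Stc2, which encodes an inhibitor of PAPPA, rose to 4.62 ± 1.33 CPM in knockouts, against 2.64 ± 0.334 CPM in controls (0.81, SE 0.20, adjusted p = 0.00693). Pappa itself, whose protein cleaves IGFBP4, was at 2.73 ± 0.992 CPM in knockouts and 3.70 ± 1.06 CPM in controls (SD, n = 5 each) and did not pass (-0.44, adjusted p = 0.242). The 3 genes for IGF2 mRNA binding proteins, which are abundant in embryos, did not pass either (log2 fold changes of 0.09 for Igf2bp1, -0.15 for Igf2bp2 and -0.08 for Igf2bp3).

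Among 15 adaptors and negative regulators, 3 rose, 4 fell and 8 did not pass. Phlda3, a p53 target whose protein competes with AKT for membrane lipids, rose to 70.7 ± 6.37 CPM in knockouts, against 11.7 ± 1.162 CPM in controls (SD, n = 5 each, log2 fold change 2.59, SE 0.08, adjusted p = 1.34e-09). Grb14, an adaptor that inhibits the insulin receptor, rose to 7.59 ± 1.49 CPM in knockouts, against 2.21 ± 0.325 CPM in controls (1.78, SE 0.16, adjusted p = 4.87e-06). Socs2, a suppressor of cytokine and growth hormone signals, fell to 28.7 ± 2.98 CPM in knockouts, against 41.8 ± 3.48 CPM in controls (-0.55, SE 0.08, adjusted p = 0.000246).

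Of 14 transducers from phosphatidylinositol 3-kinase to the FOXO factors, 3 rose, 4 fell and 7 did not pass. Pik3r1, which encodes a regulatory subunit of phosphatidylinositol 3-kinase, was at 68.1 ± 2.19 CPM in knockouts and 46.8 ± 3.70 CPM in controls (0.54, SE 0.06). Foxo3, a transcription factor that AKT keeps out of the nucleus, was at 93.5 ± 5.73 CPM in knockouts and 59.0 ± 6.95 CPM in controls (0.66, SE 0.08).

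Of 10 genes of the TSC and mTOR complexes and their targets, 4 rose, 2 fell and 4 did not pass. Eif4ebp1, a repressor of translation that mTOR inactivates, was at 44.1 ± 1.40 CPM in knockouts and 25.1 ± 1.67 CPM in controls (SD, n = 5 each, log2 fold change 0.81, SE 0.06, adjusted p = 7.09e-07). The partners Tsc1 and Tsc2, which restrain mTOR together, moved apart. Tsc1 fell to 75.0 ± 2.81 CPM in knockouts, against 88.6 ± 4.17 CPM in controls (-0.24, SE 0.04), and Tsc2 rose to 133 ± 8.33 CPM in knockouts, against 112 ± 9.73 CPM in controls (0.25, SE 0.06).

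**Figure D5:**
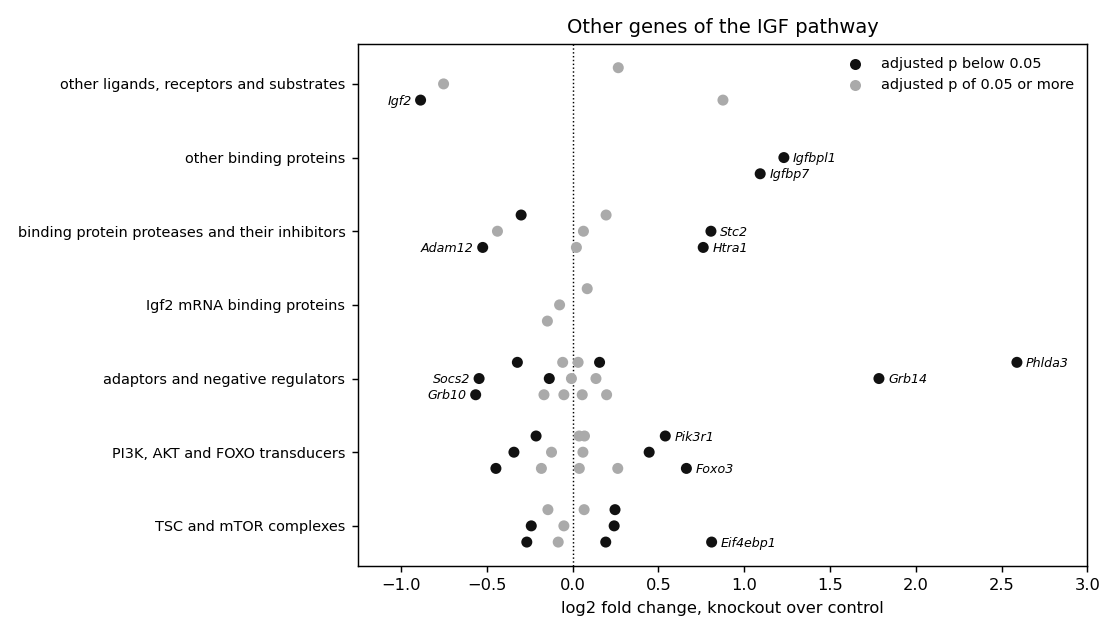
Log2 fold change of knockout over control for the tested genes of the 7 pathway lists, 1 point a gene, with 1 gene not shown (height within a list has no meaning); black marks an adjusted p below 0.05, and called genes that changed by at least 0.5 on this scale are named. Phlda3 (2.59) and Grb14 (1.78) lie farthest to the right and Igf2 (-0.89) farthest to the left.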

How the data were processed

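RNA of 10 forelimb buds was measured, and samples were grouped by their titles. The deposited table holds estimated counts per Ensembl gene, which were rounded to whole numbers. The submitters' processing notes name mm10, DESeq2 1.16.1, Salmon 0.8.2 and R 3.4.1 without a role; use of strand is not stated in them. The second deposited table is named as FPKM but holds a signal, namely the rounded counts over a size factor of each library (100.00% of values above 0 within 0.01), and served only as an alternative.

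Of 47729 gene IDs, 47224 had a symbol in GENCODE M21 (GRCm38, the assembly of mm10). Genes passed filterByExpr (minimum count 10, minimum total 15), had TMM scaling and went into edgeR 4.0.16 in R 4.3.3 (quasi-likelihood test, knockout against control, no covariate). SE is the absolute log2 fold change over the square root of F, and 95% intervals use the degrees of freedom of that test. Exact permutation tests used log2 CPM and ignored litters. Ratios of counts had 0.5 added to each count. Alternatives used DESeq2 1.42.0, limma 3.58.1, other scalings, filters and sets of libraries.

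Libraries with the same replicate number share a litter in the labels (numbers 1 and 2 both litter A), which is taken as a pairing. Deviations from the group means of same-numbered libraries correlated between -0.03 and 0.18. Within a group, no pair of libraries had a chi-square below 17.5 per degree of freedom, so none was counted as a duplicate. The p-values cover the spread between these embryos, and depth limits cover counting error only.

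The members and gene lists were chosen with earlier results of these data known. Named genes are the members, Cxxc1, Igf2, Igf2r, up to 3 genes per pathway list with the smallest adjusted p and at least 1 CPM, the 2 genes most like each member and the 2 most abundant markers of a list, and exceptions are stated; Pappa and the Igf2bp genes are given as background to their lists, and 1 gene that the rule names is counted but not reported here. Xist was above 100 CPM in knockout 3 and control 1, which an alternative left out.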

Additional observations from a re-analysis of the deposited data

Results flagged for a closer look

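In 3 of 20 groups of 5 libraries examined (9 members and Cxxc1 in knockouts and in controls), 1 library stood far from the other 4 by its gap relative to the range of the group. Chance flags about 1 group in 20. Insr was at 83.3 CPM in control 4, against 67.8 to 70.5 CPM in the other controls. Igfbp2 was at 121 CPM in control 5, against 89.4 to 98.4 CPM in the other controls. Knockout 5, of the same litter D as control 5, was the highest knockout for Igfbp2 at 105.4 CPM. Igfbp4 was at 620.4 CPM in control 1, against 716 to 738 CPM in the other controls. Control 1 is labelled as carrying Prx1Cre and also had high Xist (4114 CPM). Control 5, whose Prx1Cre label has a question mark, was the highest control for Igfbp4 at 738 CPM. The part of Cre, of Xist or of the litter in these values was not tested.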

How the results depend on the processing

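The calls of Irs1, Igfbp4 and Cxxc1 held under all alternatives run. Leaving out 1 library at a time gave log2 fold changes of 0.48 to 0.86 for Igf1, -0.22 to -0.14 for Igf1r, -0.29 to -0.13 for Insr, 0.14 to 0.24 for Irs2, -0.068 to 0.049 for Igfbp2 and -0.166 to 0.172 for Igfbp3, 6279 to 7028 genes called and differences in the log2 Igf1r to Insr ratio of -0.045 to 0.138. Without litter A, 4023 genes in place of 7245 and 16 pathway genes in place of 27 were called, Igf1 was at 1.02 and did not pass, Igfbp5 no longer passed (0.28), Insr passed (-0.36), and the Irs1 to Irs2 ratio (0.325) had an exact permutation p of 0.1, the smallest that 3 against 3 allows. With a replicate block of litter or number, Igf1r (-0.18 and -0.18) and Irs2 (0.18 and 0.18) passed, Igfbp3 turned to -0.010 and -0.028, and no other member's call changed; 7314 and 6850 genes were called. Igf1r also passed without the 2 libraries with high Xist (-0.22), which put Igfbp3 at -0.068. Irs2 also passed when scaled by library size only (0.23), where Igfbp2 turned to 0.019, and with controls without Cre only (0.21), where Igfbp2 turned to 0.043. Igfbp3 turned to -0.053 with somite stage as a term and to -0.032 with limma on the deposited normalized table. Scaling by library size put the median log2 fold change of all genes at 0.05 and 62.2% of calls higher, against 51.3% with TMM. The causes were not tested. Of 285 alternative values, 251 kept direction and call (counts: within 1.5 times).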
